A study of Drosophila melanogaster with 2 samples.

Results

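The genes described here are the protein-coding genes of Drosophila melanogaster whose symbol begins with eIF in the Ensembl annotation, the translation initiation factor genes. They were chosen by symbol, and their chromatin signal was then read from peak lists of the zinc finger protein Ham (hamlet). There were 44 such genes among 13968 protein-coding genes on the main chromosome arms, with 13 on 3R, 11 on 3L, 9 on 2R, 7 on X, 3 on 2L and 1 on chromosome 4. The lists came from 2 biological replicates of a single group, whole embryos aged 0 to 24 hours of the ham-GFP strain, a transgenic fly line that makes a Ham-eGFP fusion. Chromatin was sheared by sonication to 200 to 800 bp and recovered through the GFP tag, while the antibody field of the labels names only the target, ham. No untagged or control libraries were analysed here, the labels do not say which promoter drives the transgene, and all cells of the embryo were mixed. Stronger binding in fewer cells and weaker binding in more cells therefore cannot be told apart.

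Initiation factors bring the first tRNA, the small ribosomal subunit and the messenger RNA together. eIF2 carries the initiator tRNA and is recharged by eIF2B, eIF3 and eIF1 act on the small subunit, the eIF4 proteins bind the cap and unwind the leader, and eIF5B joins the large subunit. Ham is known for its part in the fates of sensory organs and neurons, while most initiation factors are made in nearly every cell.

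A gene was counted as having a peak where the summit of a thresholded peak lay within 500 bp of any of its annotated start sites. By this rule 6 of the 44 genes (13.6%) had a peak in the pooled list of 1495 peaks, against 6.59% of all protein-coding genes. They were eIF6, eIF4EHP, eIF3c, eIF1, eIF3h and eIF5B, in the order of their pooled signal values, the authors' own value for the height of each peak. The other 38 had none. The members were chosen with results of these data known and there was only 1 group, so counts and values are given here as descriptions without a test. The count was lower in each replicate's own list. Replicate 2, with 1050 peaks, had 4 of the genes (9.09%, against 5.70% of all genes), and replicate 1, with 516 peaks, had only eIF6 (2.27%, against 2.69%). In the conservative list of 771 peaks there were 3, namely eIF6, eIF4EHP and eIF3h (6.82%, against 4.17%).

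Of the 6 genes, 4 had stretches of peak outside every exon on arms that can be shown, and sequences from these are given here. All are given 5′ to 3′ on the plus strand of dm6, from the RefSeq sequence of the same assembly, and reach at most 100 bases from the pooled summit. Capitals mark TATCGATA, known as the DNA replication-related element, the TATA word TATAAA, the A-rich word TTAAAA, and the short word GATAA (which can overlap the end of the first), each on either strand. The peak at eIF4EHP, chr3R:24109181-24109264, is shown because it was the highest of these and held many A and T bases. The stretch between RpL28 and eIF1, chr3L:3222961-3223096, is shown because the summit lay within 500 bp of the starts of both genes. The stretch at eIF3h, chr2L:5052315-5052506, is shown because it was in an intron. The stretch at eIF5B, chr3L:3460629-3460693, is shown because the summits of both replicates' candidate regions lay in it. It held neither pooled summit of eIF5B. Outside it, GATAA lay within 50 bp of both of those summits, against 22.3% of 692 promoter summits.
eIF4EHP: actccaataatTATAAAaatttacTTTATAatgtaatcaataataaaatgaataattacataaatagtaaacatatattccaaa
eIF1: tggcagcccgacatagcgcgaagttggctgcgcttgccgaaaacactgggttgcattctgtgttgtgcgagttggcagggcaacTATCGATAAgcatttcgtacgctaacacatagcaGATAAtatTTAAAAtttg
eIF3h: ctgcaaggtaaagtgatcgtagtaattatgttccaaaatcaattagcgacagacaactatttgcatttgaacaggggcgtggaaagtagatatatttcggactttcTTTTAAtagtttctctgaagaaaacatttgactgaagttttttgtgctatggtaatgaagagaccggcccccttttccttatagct
eIF5B: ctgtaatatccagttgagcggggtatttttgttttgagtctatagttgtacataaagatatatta

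Both factors of subunit joining had a peak. eIF6 (FBgn0034915) binds the large subunit and keeps it from joining too early, and it also acts in ribosome biogenesis. Its signal value was 198 in replicate 1 and 430 in replicate 2, and 615 in the pooled list. It ranked 9 among the 1495 pooled peaks, 10 of 516 in replicate 1 and 8 of 1050 in replicate 2, and it was the only one of the 6 in the thresholded lists of both replicates. The pooled peak covered 2R from 23850301 to 23850540. Its summit was at -117 bp relative to the eIF6 start site, where negative distances are upstream. That summit lay in the exon of an RNA gene on the opposite strand, asRNA:CR45928, at 88 bp downstream of its start site. The RNA gene starts upstream of eIF6, at 23850330, and runs away from it. Signal for the pair cannot be told apart, since their start sites lie within 1 peak.

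eIF5B (FBgn0026259) is the GTPase that joins the large subunit. It had 2 overlapping pooled peaks on 3L, with signal values of 65.5 and 16.1. The lower value was under the median of all pooled candidate regions, 21.4. The summits of the 2 peaks lay 10 bp and 183 bp downstream of different eIF5B start sites, in the 5' untranslated region. Both peaks overlapped the same candidate region of replicate 1 (15.6) and of replicate 2 (53.7), and neither region was in a thresholded list. Both pooled peaks had a score of 852, on the deposited scale of reproducibility that ends at 1000. The candidate regions had scores of 29 in replicate 1 and 464 in replicate 2. The lowest score in the pooled thresholded list was 830. eIF5B was thus the member nearest to the threshold from inside. A further pooled peak of 103 lay in an eIF5B intron, 27718 bp from the nearest start site of the gene.

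Of the 7 genes of the cap-binding eIF4E family, all had a candidate region and 1 had a peak. That was eIF4EHP (FBgn0053100), a cap-binding protein known in the fly embryo as a repressor of caudal and hunchback messenger RNA. Its signal value was 100.1 in replicate 1 and 210 in replicate 2, both as candidate regions, and 313 in the pooled list, where it ranked 66. The summit lay between genes at -230 bp from the eIF4EHP start site, and nearer, at -146 bp, to the start of CG18428 on the opposite strand. The pooled peak was only 84 bp wide, the narrowest width in the list and that of 4 peaks. The candidate regions of the replicates were 296 and 300 bp wide. These regions had the highest possible score, 1000, in both replicates but were in the thresholded list of neither. Among 692 pooled promoter peaks this was the only one with a candidate region at or above the score minimum in both replicates and a place in neither list. Over all candidate regions, 172 in replicate 1 and 69 in replicate 2 reached that minimum without being in the replicate's thresholded list. The notes deposited with the files name an additional, undescribed source file for thresholded lists that ranked lists did not have. Its part in the result was not tested. A second pooled peak, of 86.3, lay in an eIF4EHP intron 9826 bp from the start site. Among the other members of the family the highest pooled candidate value was 40.8, at eIF4E4, and the lowest was 12.1, at eIF4E6. The main cap-binding gene, eIF4E1, had 33.2.

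The eIF3 complex, the scaffold of the small subunit, was represented by 16 genes, of which 14 had a candidate region and 2 had a peak. eIF3c (FBgn0034258), a core subunit, had no candidate region in replicate 1 and a thresholded peak of 88.5 in replicate 2. Its pooled peak of 104 covered 2R from 17665485 to 17665820, and the summit was at -25 bp, with no other start site within 500 bp. eIF3h (FBgn0022023), a subunit outside the core, had a candidate value of 34.5 in replicate 1 and a thresholded peak of 56.1 in replicate 2, and a pooled peak of 83.3. Its summit lay in an intron, 374 bp downstream of the nearer of the annotated starts of the gene and at -437 bp from the start of senju, a Golgi nucleotide sugar transporter gene on the other strand. The candidate region of eIF3h in replicate 1 had a score of 188, far under the minimum. Just outside the pooled list was eIF3a, another core subunit, with 19.9 in replicate 1, 54.7 in replicate 2 and 75.9 pooled, at -57 bp from its start and a score of 784. Its pooled value was above that of eIF5B, since scores and signal values do not run in the same order.

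Among the 3 genes of start codon scanning, eIF1 (FBgn0035423), which keeps the start codon choice strict, had a peak. It had no candidate region in replicate 1, a thresholded peak of 59.2 in replicate 2 and a pooled peak of 93.4. The summit lay at -345 bp from the eIF1 start, but at -36 bp from that of RpL28, a ribosomal protein gene on the opposite strand whose start was 381 bp away. In replicate 2 the summit was 49 bp closer to eIF1, at position 3223045, the first base of the TATCGATA shown above. eIF1A had a pooled candidate value of 19.4, and eIF5 had none. The peaks of eIF3c, eIF1 and eIF3h were thresholded in replicate 2 but not in replicate 1, and with replicate 2 left out the count of genes with a peak was 1.

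**Figure D1:**
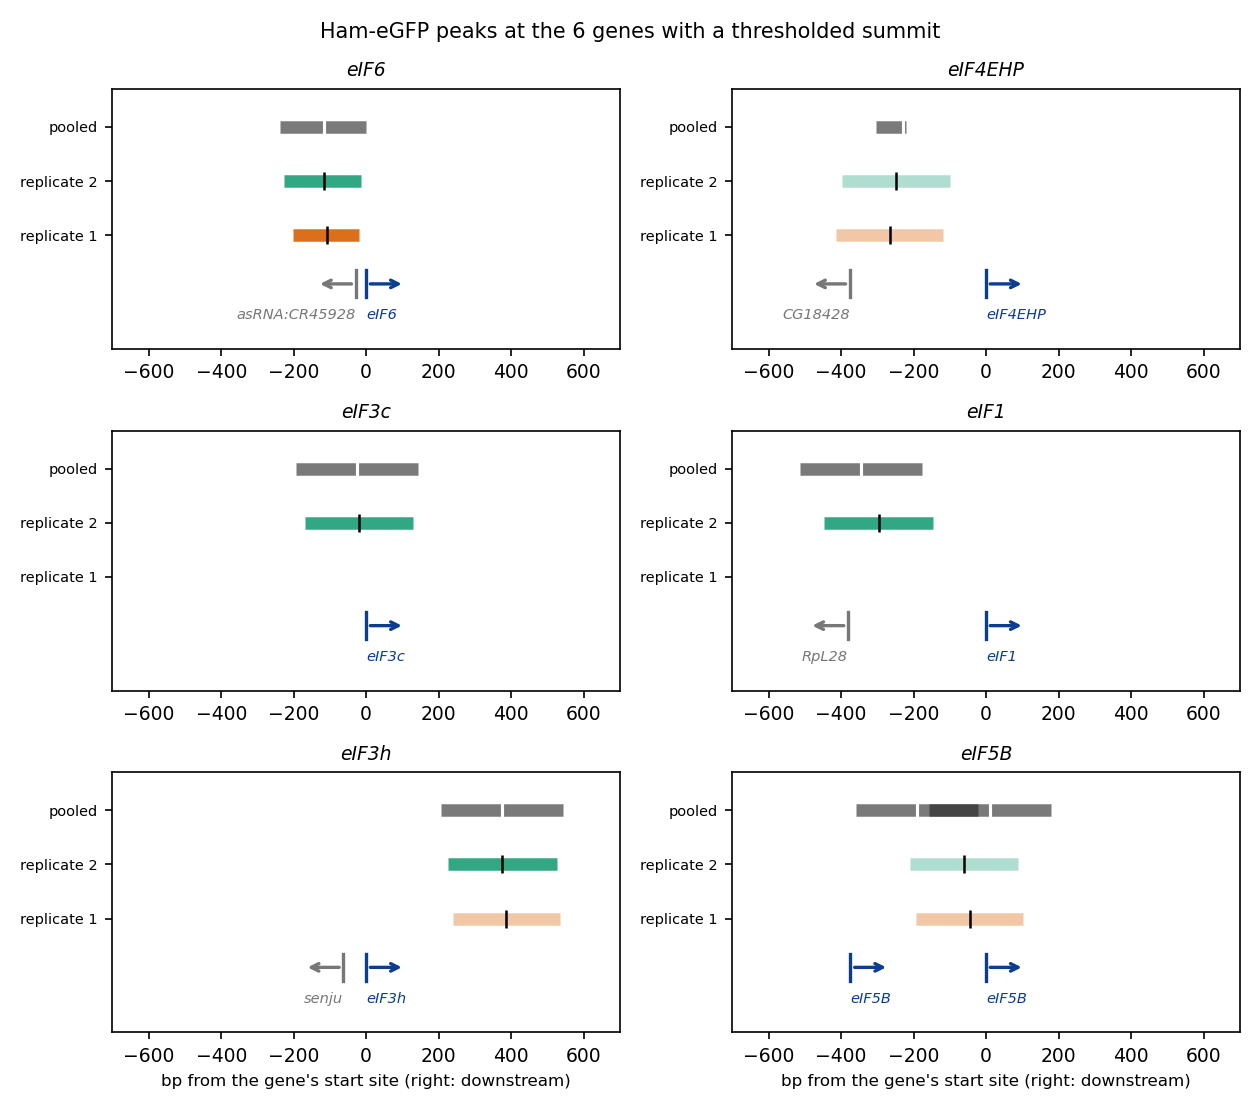
Peaks at the 6 genes, drawn in bp from the gene's start site (x axis, right is downstream) for the pooled list and each replicate, with strong colour for a thresholded replicate peak, pale colour for a candidate region only, and a tick at the summit. At eIF5B the start nearest to the higher peak is used, so the summit of the lower peak is drawn upstream. The text measures that summit from its own nearest start. Arrows give the nearest start of each gene within 500 bp of the summit (a snoRNA start at eIF1 lies outside the frame); the summits range from -345 bp at eIF1 to 374 bp at eIF3h.

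The remaining groups had no thresholded promoter peak. For eIF2, the carrier of the initiator tRNA, eIF2gamma had a pooled candidate value of 39.9 and eIF2alpha of 23.0, and eIF2beta had no candidate region. Of the 5 eIF2B genes, 3 had a candidate region, at 35.8 (eIF2Bdelta), 30.8 (eIF2Balpha) and 18.8 (eIF2Bepsilon), and none had one in replicate 1. eIF2Bbeta was the member nearest to the 500 bp limit from outside. A pooled peak of 855, rank 4 in the list, had its summit 680 bp from its start site and closer to that of Ugalt, a nucleotide sugar transporter gene, whose start was the only one of a protein-coding gene within 500 bp. That peak was thresholded in both replicates, at 229 and 624. The next nearest was eIF3d1, with a peak of 74.5 at 1241 bp. The helicase eIF4A had 12.9 in replicate 1, 47.6 in replicate 2 and 54.5 pooled, while its cofactor genes eIF4B and eIF4H1 had no pooled candidate region. eIF2D and eIF2A, which can deliver tRNA by other routes, had 45.9 and 15.9.

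Several factors have a pair of gene copies, and the pooled candidate values differed within pairs. eIF3g2 had 45.7 and eIF3g1 10.5, eIF3f2 had 16.9 and eIF3f1 no candidate region, and eIF4H2 had 22.1 and eIF4H1 none. The eIF3g copies were closer in replicate 2, at 26.6 for eIF3g2 and 18.8 for eIF3g1. In replicate 1 eIF3g2 had 16.9 and eIF3g1 no candidate region. eIF4G2, a scaffold known for its part in spermatogenesis, had 31.9, and eIF4G1, on chromosome 4, had none. The pooled list held no thresholded peak anywhere on chromosome 4. Only in the eIF3d pair was the first copy higher, with 50.7 at eIF3d1 and 34.1 at eIF3d2. The values were closer in the replicates, with 34.6 at eIF3d1 and 33.1 at eIF3d2 in replicate 2 and 10.8 at both in replicate 1. Apart from eIF3d1 and eIF3g2, the pooled values of these pairs lay within or under the quartiles of all genes, 22.4 and 44.6, and none was thresholded. In replicate 2, eIF4G2 (44.1), eIF3d1 and eIF3d2 were above the upper quartile of all genes there, 32.2. In replicate 1 only eIF4G2 was, at 22.2 against 18.1.

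**Figure D2:**
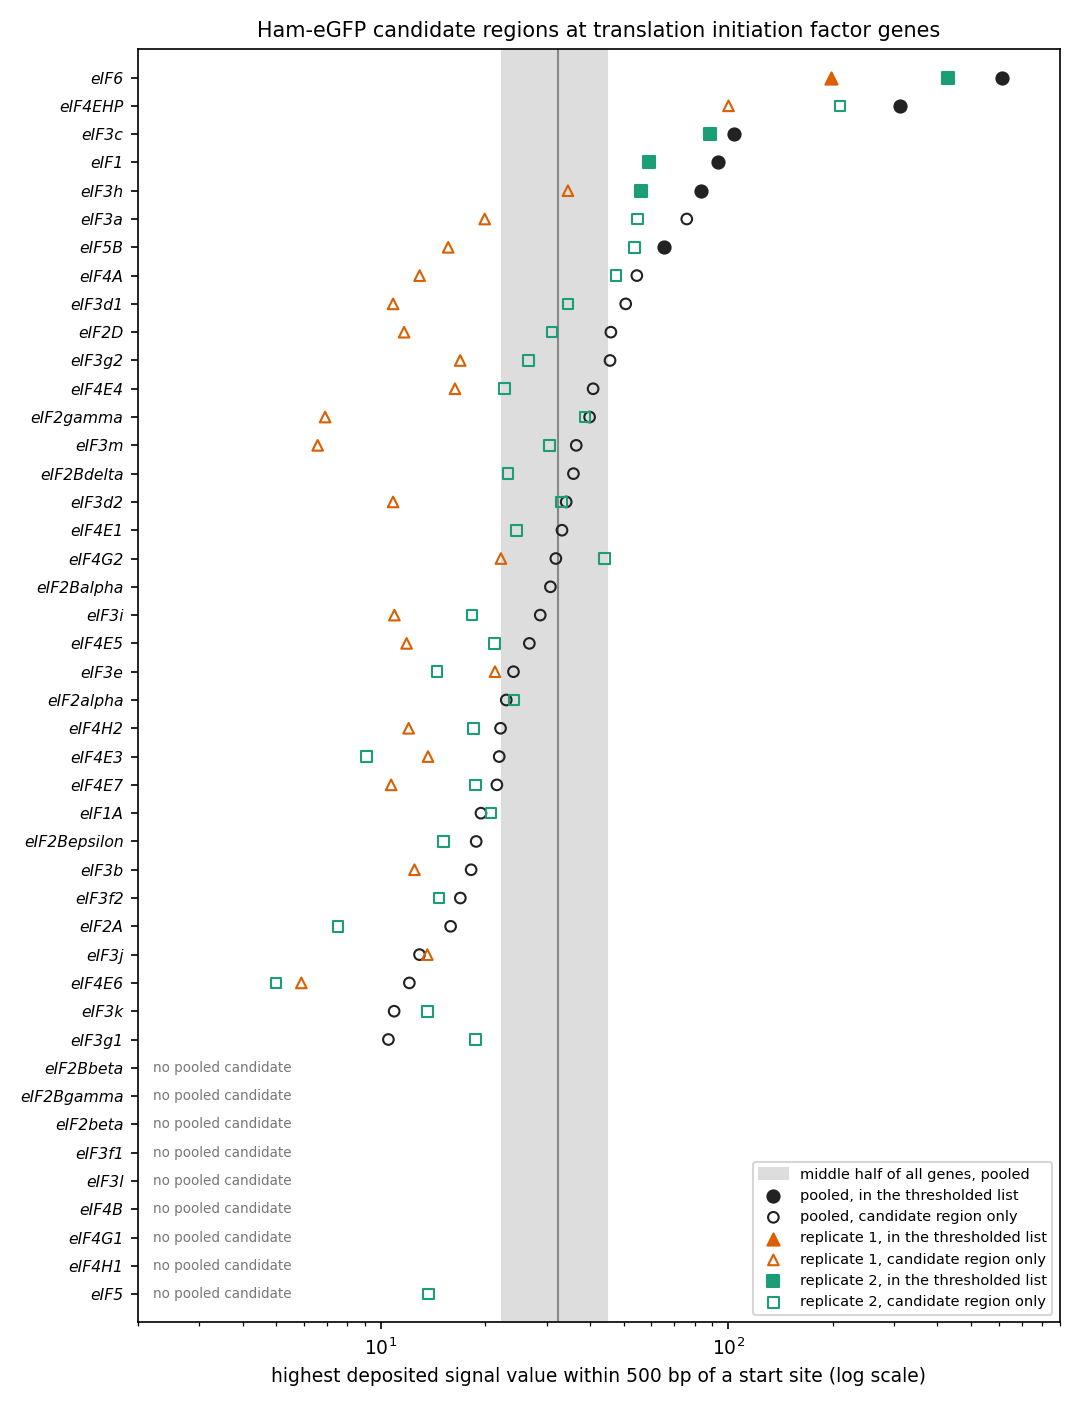
Highest signal value of a candidate region within 500 bp of a start site (x axis, log scale) for each of the 44 genes, in the pooled list (circles), replicate 1 (triangles) and replicate 2 (squares), filled where the gene is in that thresholded list. The grey band spans the quartiles of all protein-coding genes with a pooled candidate region and the line is their median of 32.2; eIF6, at 615, is the highest.

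Candidate regions of any height were about as frequent at these genes as at others in the pooled list. A pooled candidate region lay within 500 bp of a start of 35 of the 44 genes (79.5%, against 79.6% of all protein-coding genes). In replicate 2 this held for 33 of the 44 genes, against 80.9% of all genes, and in replicate 1 for 23 (52.3%, against 59.5%). The median of the highest pooled value per gene was 31.9 over the 35 genes, with quartiles of 20.5 and 48.3. Over all 11121 genes with a candidate region it was 32.2, with quartiles of 22.4 and 44.6. For the 29 genes outside the pooled thresholded list it was 26.7, against 30.6 for the other genes outside it. Replicate 1 gave medians of 12.9 against 13.3 and replicate 2 of 24.1 against 23.5.

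The 7 peaks of the 6 genes had a median signal value of 93.4, against 103 for the 692 pooled peaks with a summit within 500 bp of a protein-coding start. The quartiles of all these peaks were 78.1 and 155, so that eIF6 and eIF4EHP lay above them, eIF3c, eIF1 and eIF3h within and eIF5B below. Where both replicates had a candidate region, replicate 2 had the higher value at each of these genes. The ratio was 2.18 at eIF6, 2.09 at eIF4EHP, 1.63 at eIF3h and 3.44 at eIF5B, against a median of 2.33 (quartiles 1.83 and 3.02) over 642 promoter peaks. Nothing in the sources gives the replicates a shared scale, so these ratios compare list values and not binding. Of the 7 peaks, 1 was matched by thresholded peaks in each replicate (14.3%, against 33.5% of the 692). Another 3 were matched in replicate 2 alone (42.9%, against 42.6%) and 3 in neither (42.9%, against 20.8%). The last 3 were the peak at eIF4EHP and both overlapping peaks at eIF5B, so that eIF5B was counted 2 times.

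**Figure D3:**
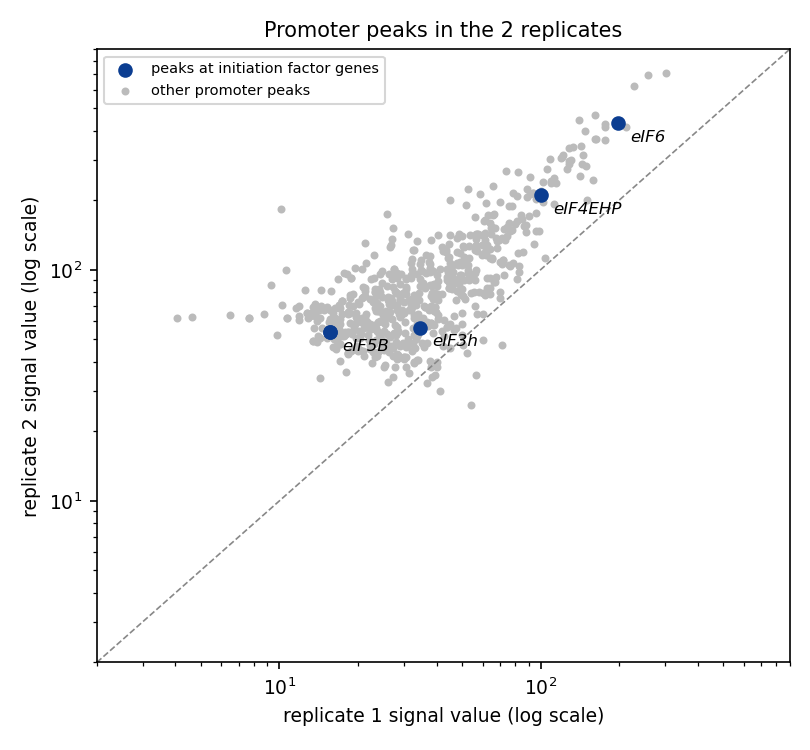
Signal value in replicate 1 (x axis) and replicate 2 (y axis), both on log scales, for pooled promoter peaks that both replicates list as candidates; dark points are peaks at initiation factor genes, grey points other promoter peaks, and the dashed line marks equal values. The 4 named genes lie above the line, with eIF6 at 198 and 430; eIF3c and eIF1 are missing because replicate 1 had no candidate region there.

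Of the 7 peaks, 3 had the start of a second protein-coding gene within 500 bp of the summit (42.9%, against 37.3% of the 692 promoter peaks). At eIF6, eIF4EHP and eIF1 the start site nearest to the summit belonged to another annotated gene. Of the 44 genes, 18 (40.9%) had the start of another protein-coding gene on the opposite strand within 500 bp of one of their starts, against 27.8% of all genes. Among these 18, 4 had a peak (22.2%, against 13.3% of all 3878 such genes), and among the other 26, 2 had one (7.69%, against 4.02% of all 10090 others). The genes with a peak and such a neighbour were eIF4EHP, eIF1, eIF3h and eIF5B. The opposite neighbours of eIF5B were CG46463 and armi, an RNA helicase gene of the piRNA pathway, and no start of either lay within 500 bp of the summits. The genes with a peak and no such neighbour were eIF6 and eIF3c. The median distance of the 7 summits from the eIF start was -25 bp, but they spread from -345 to 374 bp. Over the 692 promoter peaks the median distance to the nearest protein-coding start was -103 bp, and 80.3% lay upstream.

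Promoters were searched for TATCGATA, the element bound in flies by the factor DREF. In windows of 250 bases before to 50 after the outermost start, this word occurred in 12 of 44 genes (27.3%), against 9.36% of 13960 promoters. Its first base lay upstream of the start at 11 of the 12 genes, from -8 bp at eIF3f1 to -220 bp at eIF3c, with eIF6 at -11 bp and eIF3a at -38 bp. At eIF2Bbeta it lay 28 bp downstream. Of the 12 genes 2 had a peak, eIF6 and eIF3c, and of the other 32 genes 4 had one. Over all genes, 8.88% of those with the word and 6.36% of those without had a peak. The whole word lay within 50 bp of 0 of the 7 pooled summits, against 2.46% of 692 summit windows. At eIF1 it began 49 bp from the pooled summit and ran past the edge of that window. No test was made of any of these shares.

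The other words were searched on both strands in the same windows. GGTCACACT, the core of the M1BP motif, was in 6.82% of initiation factor promoters, against 6.04% of all promoters, and in 1 of the 7 summit windows, at eIF5B, against 1.30% of the 692. TATAAA was in 45.5%, against 45.8%, TTAAAA in 68.2%, against 53.4%, and CTTTT, part of the TCT initiator, in 70.5%, against 76.6%. GATAA, which can overlap TATCGATAA, was in 52.3%, against 55.1%. TCAGT, part of the initiator, was in 22.7%, against 51.5%, and GAGAG, the GAGA factor's word, in 15.9%, against 29.7%. CAGCTG was in 9.09%, against 17.7%, and CAGGTA in 2.27%, against 6.24%. Of the 7 summit windows, GATAA was in 3 (eIF6 and both of eIF5B), against 22.3% of the 692. TATAAA and TTAAAA were each in 2, against 22.4% and 34.7%. TCAGT was in 2, against 16.5%. GAGAG and CTTTT were each in 1, against 9.25% and 34.8%. CAGCTG and CAGGTA were in 0, against 3.47% and 1.01%. Within 50 bp of the summit A and T made up 80.2% of bases at eIF4EHP, 67.3% at eIF3c, 65.3% at eIF3h, 62.4% at eIF6 and 47.5% at eIF1. At eIF5B they made up 50.5% and 60.4%. The median over all promoter peaks was 66.3%, with quartiles of 57.4% and 73.3%.

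Other genes of translation had promoter peaks as well. They were 30 genes of translational control, elongation, release, recycling, the ribosome (RpS6 among them) and mitochondrial initiation. Of these, 8 (26.7%, against 6.59% of all genes) had one in the pooled list. There were 2 in the conservative list (6.67%, against 4.17%), 5 in replicate 2's list (16.7%, against 5.70%) and 0 in replicate 1's list (against 2.69%). Among the elongation factors, eEF1gamma, a subunit of the exchange factor that recharges eEF1A, had the highest, at 25.8 in replicate 1, 174 in replicate 2 and 201 pooled. eEF1alpha1, which delivers tRNA, had 77.7 and eEF5, the fly counterpart of eIF5A, had 68.2. Both release factors, eRF1 (88.8) and eRF3 (73.2), had a peak. Rack1, a protein of the small subunit, had 75.4, the kinase gene mTor 78.1, and larp, which encodes an RNA-binding protein of cap control, 82.2. At larp a higher pooled candidate region, of 398 at -339 bp with a score of 1000, was in no thresholded list. Thor, the eIF4E-binding protein, was in replicate 2's list only. Cytoplasmic ribosomal protein genes had a peak in 31 of 92 cases (33.7%) and mitochondrial ones in 7 of 73 (9.59%). The difference between these lists was not tested.

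**Figure D4:**
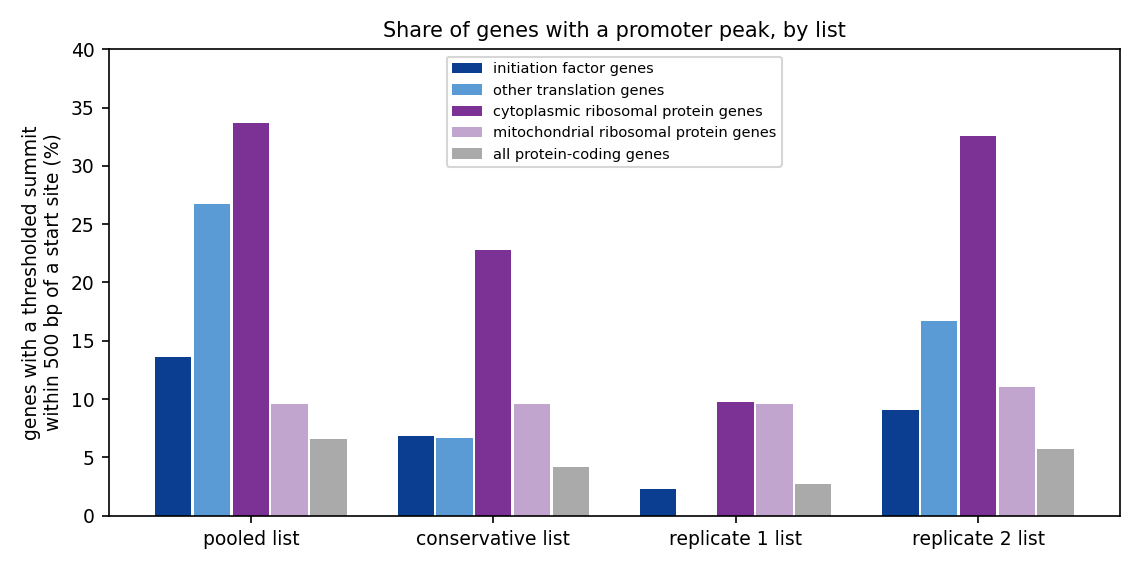
Percent of genes with a thresholded summit within 500 bp of a start site (y axis), in each thresholded list (x axis), for initiation factor genes, other translation genes, cytoplasmic and mitochondrial ribosomal protein genes and all protein-coding genes. Initiation factor genes reach 13.6% in the pooled list and 2.27% in replicate 1's list, where all genes reach 6.59% and 2.69%.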

How the data were processed

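Peak lists came ranked (all candidate regions) and thresholded, for each replicate and for the pooled replicates, plus a conservative version. All are on dm6, per the labels. File notes say that regions were ordered by the irreproducible discovery rate. Aligner and peak caller were not given in the sources used here, and control libraries were not analysed here. The signal value and the score of each peak are as the authors deposited them. A −log10 column for that rate was also deposited and is not printed. The summit offset is a deposited position. Depth is unknown.

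Start sites were those of all transcripts in Ensembl release 115. Assembly lengths were checked against the last region of each arm. Overlap meant at least 1 bp. The pairing of summits and genes was tested on simulated data (Python 3.11.15, pandas 2.3.3). Of the symbols of other translation genes, 2 were replaced by current ones. Named genes are all members with a pooled promoter peak, the 5 highest others, those nearest the limits, and further members named by role after their values were seen. Members, lists and words were chosen with earlier results of these data known. Alternatives were other windows, lists, start sites and each replicate alone.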

Additional observations from a re-analysis of the deposited data

How the results depend on the processing

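The count of 6 genes was between 4 and 7 with windows of 250 and 1000 bp, the higher-signal peaks, any base of the peak and the outermost start. It was 3 in the conservative list, and 1 to 4 with either replicate left out. The share of all protein-coding genes was 5.23% with 250 bp, 8.06% with 1000 bp, 7.14% with any base of the peak, 5.61% with the outermost start, 4.17% in the conservative list, 4.32% in higher-signal peaks, and 2.69% to 5.70% with a replicate left out. With 1000 bp, 2 peaks in place of 1 were shared by both replicates, the second being that at Ugalt. The median signal value was 313 in the conservative list and 73.8 without replicate 1. Without replicate 2 only eIF6 was left, with 198. Values of a single replicate are on that replicate's own scale. The median distance was -71.0 bp with 1000 bp or with the outermost start only. It was -117 bp in the conservative list and -68.5 bp without replicate 1. Without replicate 2 it was the distance at eIF6 alone, -107 bp. The number of peaks near the start of a second protein-coding gene, 3, was 1 with 250 bp, 8 with 1000 bp, 5 with any base of the peak and 0 to 2 without a replicate. Its share over all promoter peaks is given above for 500 bp only. The median candidate value was 12.9 to 24.1 without a replicate, on that replicate's own scale. Other translation genes, added after the data were seen, numbered 2 in the conservative list and 0 to 5 without a replicate. Fewer peaks were listed in the conservative and replicate lists; other causes were not tested. No paired analysis was possible because there was only 1 group.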
